A study of Homo sapiens with 17 samples.

Results

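The genes described here are 58 named genes of mitosis and chromosome segregation, listed by name for their known roles by a rule that uses no measured value, although earlier results of these data were known when the list was made. Of the 58, 56 were among the 9699 genes of the deposited expression table, and the expression of TOP2A and ECT2 was not analysed here. They were followed in BJ cells, human foreskin fibroblasts, in which polyadenylated RNA (RNA-Seq) and ribosome-protected fragments (Ribo-Seq, the stretches of mRNA shielded by translating ribosomes) were sequenced in parallel in 9 RNA-Seq and 8 Ribo-Seq libraries. In all groups the cells had been immortalized with hTERT, the catalytic subunit of telomerase, and the growth medium given for them was DMEM with fetal calf serum. Proliferating cells were grown under normal conditions, and quiescent cells were made by depleting the serum. Pre-senescent and senescent cells carried a tamoxifen-inducible RASG12V oncogene and were exposed to 4-OHT-tamoxifen, for 5 days in the first case and 14 days in the second. Transformed cells carried stable knockdowns, p16INK4A among the targets, expressed SV40 small T, and received RASG12V from the retroviral vector pBabe-puro. Every library was therefore from 1 cell line, and no separate clones or donors are named.

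The expression table held 12 columns, 1 per condition, assay and sequencer run. Run 1 comprised a proliferation column, quiescence and pre-senescence, with paired-end RNA-Seq, and run 2 comprised another proliferation column, senescence and transformed cells, with single-end RNA-Seq. The run 1 proliferation and quiescence columns and the pre-senescence RNA-Seq column each stand for 2 libraries merged by the authors, so no spread between replicates can be computed and no p-value is given. Each condition was set against the proliferation column of its own run, and the difference between both proliferation columns was used as the only measure of how far 2 columns of the same condition lie apart. Values are FPKM (fragments scaled to the length of the transcript and to the reads of the library), which the authors set to 1 wherever they fell below 1. A gene is called higher or lower here where it differed by at least 2-fold and reached 2 FPKM in at least 1 of the columns compared, and the first count of called genes in each comparison is given beside the same share over all genes measured. Translation efficiency (TE) is log2 of Ribo-Seq FPKM over RNA-Seq FPKM.

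In mitosis, condensins compact the replicated chromosomes, kinetochores built on centromeric chromatin attach them to spindle microtubules, and the spindle checkpoint holds back the anaphase-promoting complex (APC/C) until every kinetochore is attached. The APC/C with CDC20 then marks securin for destruction, separase cuts cohesin, and a central spindle directs cytokinesis. Most of these genes are transcribed late in the cell cycle, when the factors B-MYB and FOXM1 act with the MuvB complex, and in arrested cells the DREAM complex holds them off through a promoter element called CHR, often with CCAAT boxes that bind NF-Y upstream.

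Because these elements are shared by many of the genes, promoter windows from RefSeq (GRCh38.p14, from 250 bases before to 50 bases after each annotated start) were searched for the CHR letters TTTGAA and the CCAAT letters. Each motif was searched separately and on both strands, and overlapping matches of the same motif were counted once. A window was at hand for 47 of the 58 genes, TOP2A and ECT2 included, and for 8028 genes of the table. The following stretches, printed 5′ to 3′ on the strand of the gene and ending at the base before the start, are shown because they carry both motifs in front of a ubiquitin ligase activator, a kinase, a microtubule bundler and a histone, and because MYBL2, which encodes B-MYB itself, carries neither. Capitals mark the motifs. CDC20 lies at chr1:43358871-43358980 on the plus strand, PLK1 at chr16:23678779-23678888 on the plus strand, PRC1 at chr15:90994536-90994645 on the minus strand, CENPA at chr2:26785916-26786055 on the plus strand and MYBL2 at chr20:43667004-43667113 on the plus strand.
CDC20: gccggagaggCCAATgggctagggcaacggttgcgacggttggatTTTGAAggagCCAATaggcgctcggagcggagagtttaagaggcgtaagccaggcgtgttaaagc
PLK1: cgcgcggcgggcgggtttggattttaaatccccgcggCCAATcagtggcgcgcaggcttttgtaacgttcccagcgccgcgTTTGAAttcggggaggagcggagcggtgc
PRC1: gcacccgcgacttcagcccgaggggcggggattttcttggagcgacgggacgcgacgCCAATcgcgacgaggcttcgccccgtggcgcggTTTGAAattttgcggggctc
CENPA: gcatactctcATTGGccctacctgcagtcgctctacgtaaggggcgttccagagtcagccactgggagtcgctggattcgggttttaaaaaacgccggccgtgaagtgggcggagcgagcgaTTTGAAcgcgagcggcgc
MYBL2: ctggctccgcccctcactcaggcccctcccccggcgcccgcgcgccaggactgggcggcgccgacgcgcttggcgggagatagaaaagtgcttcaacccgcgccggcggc

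TTTGAA was present in 31 of the 47 genes (66.0%), against 1091 of 8028 genes of the table (13.6%) and 15.2% of all 35116 windows. In 27 of the 47 genes (57.4%) a match began within 50 bases of the start, against 349 of the 8028 genes (4.35%). In CDC20, PLK1, PRC1 and CENPA the match in the printed stretch began at position -65, -29, -20 and -18 from the start. The CCAAT letters were found in 33 of the 47 genes (70.2%) against 44.0% of the genes of the table, and at 2 or more places in 20 (42.6%) against 16.3%. By role, TTTGAA was found in 7 of 8 condensin and topoisomerase genes and 7 of 11 kinetochore genes but in 2 of 7 genes of cohesion and anaphase. A match describes letters in a window and was not tested as a binding site, and other spellings of the CHR were not searched.

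The state of the cells and the labels were checked first. MKI67, a proliferation marker, was at 44.0 FPKM of RNA in the run 2 proliferation column and at the floor of 1 in senescence, and CDKN1A, which encodes the cell cycle inhibitor p21, stood at 172 and 814 FPKM. CDKN2A, whose locus also yields another protein besides p16INK4A, was at 12.6 FPKM of RNA in transformed cells against 6.75 in proliferation of the same run and 17.2 in that of run 1, and its footprints were at 5.51 FPKM against 8.92 and 13 in the proliferation columns of run 2 and run 1. HRAS RNA was far higher in both proliferation columns (2415 and 1284 FPKM) than in transformed cells (312 FPKM), so its level does not separate RAS-induced from proliferating columns. All 9 fibroblast markers were in the table, with summed RNA of 5004 to 7473 FPKM in the 6 columns, most of it VIM (2956 to 4881 FPKM). KRT8, KRT18 and KRT19 were the listed ones of 6 epithelial markers (summed RNA of 105 to 313 FPKM), CD68 and CD14 those of 4 leukocyte markers (39.3 to 133 FPKM), and the 4 endothelial markers had no row. For the Ribo-Seq libraries titled as run 2 proliferation and as senescence, the condition fields of the labels are exchanged relative to the titles. The titles were followed, and across the 9699 genes the log2 Ribo-Seq values of the senescence column had a Pearson correlation of 0.897 with senescence RNA and 0.780 with proliferation RNA, while those of the proliferation column had 0.796 and 0.875. With the columns exchanged, each Ribo-Seq change in senescence given below would have the opposite sign.

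Summed over the 56 genes, RNA was 2844 FPKM in proliferation, 1950 in pre-senescence and 1262 in quiescence in run 1, and 1850 in proliferation, 1775 in transformed cells and 258 in senescence in run 2. The Ribo-Seq sums ran in the same order within run 1, at 4111, 2363 and 1717 FPKM, while in run 2 transformed cells (2749 FPKM) lay just above proliferation (2656 FPKM) and senescence was at 329 FPKM. Senescence was the lowest of the 6 columns for all 56 genes in both assays, and in RNA 54 of the 56 genes followed the order proliferation, pre-senescence, quiescence, senescence, the first 3 in run 1 and the last in run 2. Within run 1 alone, quiescence was lower than pre-senescence for 55 genes in RNA and 48 in Ribo-Seq. In such bulk samples, fewer dividing cells and less RNA in each cell cannot be told apart.

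**Figure D1:**
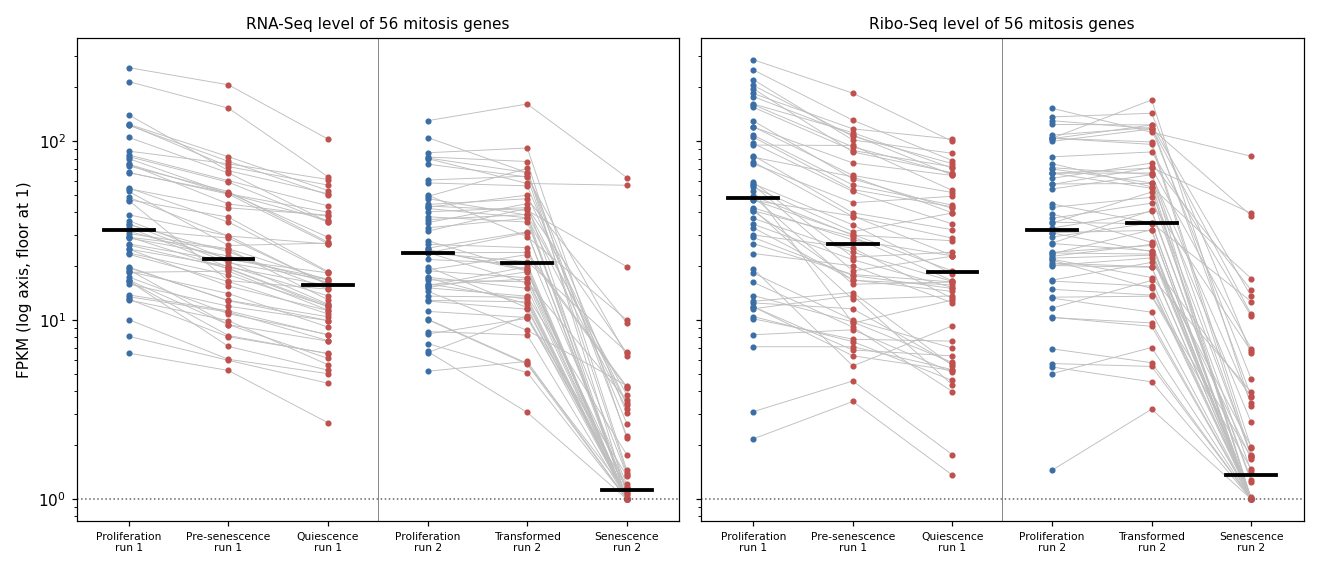
FPKM (log axis, y) of each of the 56 mitosis genes in the RNA-Seq (left) and Ribo-Seq (right) columns, with the 3 columns of run 1 and the 3 of run 2 separated by a vertical line. Each point is a gene, grey lines join a gene's values within a run, black bars are medians (RNA: 31.8 FPKM in run 1 proliferation and 1.13 in senescence), and the dotted line is the floor of 1.

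The 2 proliferation columns were not at the same level. RNA was lower in run 2 than in run 1 for 54 of the 56 genes, with a median log2 difference of -0.49, and 5 genes were at least 2-fold lower (3.14% of all genes) and 0 at least 2-fold higher (5.1%). In Ribo-Seq 8 genes were lower (8.64%) and 2 higher (10.9%), with a median of -0.51, and in TE 1 of 55 was lower (2.95%) and 3 higher (4.1%). CDC20 differed most in RNA, at 215 and 86.2 FPKM, and FOXM1 differed most in Ribo-Seq, at 12.7 and 5.02 FPKM, while SGOL1, a protector of centromeric cohesion, was the highest in the other direction, at 3.08 and 6.91 FPKM. Fibroblast markers differed too. Of 9, 7 had more RNA in run 2 and 5 of these at least 2-fold, such as DCN at 27.6 and 164 FPKM, while VIM (4334 and 2956 FPKM) and FN1 (915 and 722 FPKM) had less, and the epithelial keratin KRT19 was at 1 and 39.8 FPKM. The part of these markers in the lower mitotic level of run 2 was not tested.

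In quiescence, the mitosis genes were lower together and by a similar amount, and most passed 2-fold. All 56 were below run 1 proliferation in RNA, and 36 were at least 2-fold lower (2.5% of all genes measured) while 0 were 2-fold higher (4.24%). The median was -1.11 on the log2 scale, a 2.16-fold lower level, in a narrow range from -1.77 for CDC20, the APC/C activator, to -0.49 for CKAP5, a microtubule polymerase, while the median of all genes was -0.01. Besides CDC20 the lowest were CDCA3 (-1.66), which helps to start mitotic entry by way of the kinase WEE1, and MYBL2 (-1.64). BUB3 (-0.53) and SMC2 (-0.68) were the other genes nearest to 0. In Ribo-Seq 40 of the 56 were at least 2-fold lower (8.44%) and 0 higher (9.59%), with a median of -1.19, and the lowest were the centrosomal kinase NEK2 (-2.03), the centromere protein CENPN (-2.03) and CDC20 (-1.68). The differences in footprints followed those in RNA. The median TE difference was -0.06, close to -0.07 over all genes, and of 54 genes 1, CENPN (-1.21), was 2-fold lower in TE (3.25%) and 0 were higher (2.06%). MYBL2 (0.94), INCENP (0.60) and CASC5 (0.58) had the highest TE differences. The size of the fall depended on the reference column, since against run 2 proliferation 5 genes rather than 36 were 2-fold lower in RNA (4.29% of all genes) and 16 rather than 40 in Ribo-Seq (11.6%), but 53 genes in RNA and 52 in Ribo-Seq were below both proliferation columns.

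At 5 days of RASG12V induction, the differences were smaller and of the size of that between the proliferation columns. In RNA 55 of the 56 genes were below run 1 proliferation, with a median of -0.51, and 6 were at least 2-fold lower (2.13% of all genes) and 0 higher (1.89%). The 6 were MYBL2 (-1.49), CDCA3 (-1.21), ANLN (-1.03), a scaffold of the contractile ring, SPC24 (-1.02) of the NDC80 complex, the protease separase, ESPL1 (-1.01), and NUSAP1, a microtubule bundler that went from 52.3 to 26.1 FPKM. Only 31 of the 56 genes were below both proliferation columns and 24 lay between them, and against run 2 proliferation 0 genes were 2-fold lower (6.96% of all genes). At the median, footprints were further down than RNA, as they were over all genes (-0.13 in Ribo-Seq and 0.04 in RNA). In Ribo-Seq 12 were at least 2-fold lower (10.9%) and 0 higher (7.55%), with a median of -0.73, led by NEK2 (-2.46), CENPA (-1.81) and DLGAP5 (-1.68), a spindle assembly factor. In TE the median was -0.21 against -0.15 over all genes, and the shares called were no larger than over all genes. The 3 genes 2-fold lower (5.36%, against 6.91% of all genes) were NEK2 (-1.78), NDC80 (-1.09) and SPC25 (-1.02). Another 2 genes were 2-fold higher in TE (3.57%, against 3.65% of all genes), MYBL2 (1.58) and PLK4 (1.14), the kinase that starts centriole duplication. CDCA3 followed at 0.97. These TE counts moved with the processing, since 1 gene was higher with 1 FPKM added or with a filter of 5 FPKM, and 1 was lower and 5 were higher after centring on the median of all genes.

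After 14 days of RASG12V, the mitosis genes had almost disappeared from both assays. In RNA 55 of the 56 genes were at least 2-fold lower (13.6% of all genes) and 0 were higher (7.42%), and 24 stood at the floor of 1 FPKM. The median log2 difference was -3.74, a 13.4-fold lower level with the genes at the floor counted at 1 FPKM. In each assay 36 genes were under 2 FPKM in senescence and counted as measured through the proliferation column only, so these had to differ, PLK4 was not measured in Ribo-Seq, and of the 20 and 19 genes at 2 FPKM or more in senescence 19 and 17 were 2-fold lower. The lowest were UBE2C (-5.81), the ubiquitin-conjugating enzyme of the APC/C, NUSAP1 (-5.58) and BIRC5 (-5.53), which encodes survivin. They stood at 1.45, 1 and 1.06 FPKM in senescence, and so near the floor the rank largely follows the proliferation level. BUB3 was the exception, at 56.7 FPKM against 79.9 in proliferation (-0.49), and UBE2S (-1.06) and CKAP5 (-1.12) came next. In Ribo-Seq 53 of 55 measured genes were at least 2-fold lower (17.4%) and 0 higher (11.6%), with a median of -4.31, the lowest being PLK1 (-6.15), NUSAP1 (-6.05) and CDC20 (-5.90). Their footprints in senescence were at 1, 1 and 1.74 FPKM, so the same limit holds for this rank. CKAP5 (-0.53) and BUB3 (-0.89) did not reach 2-fold. TE could be taken for 17 genes only, and 0 of these were 2-fold lower (5.65%) or higher (2.36%), with a range from -0.77 for ZWINT to 0.74 for ANLN. Fibroblast markers were lower beside them, 7 of 9 at least 2-fold in RNA and 6 of 9 in Ribo-Seq, with a median RNA difference of -2.45, and in pre-senescence 5 of 9 were 2-fold lower in RNA. Their part in the result was not tested.

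In transformed cells, which also carried RASG12V, the mitosis genes stayed near run 2 proliferation and all 56 lay above senescence in both assays. The median difference from run 2 proliferation was -0.08 in RNA and 0.01 in Ribo-Seq. In RNA 34 of the 56 genes lay below both proliferation columns, 19 between them and 3 above both. In Ribo-Seq these numbers were 21, 28 and 7. One RNA was 2-fold lower, that of CENPE (-1.13), the kinetochore kinesin, so 1 of 56 was lower (5.54% of all genes) and 0 were higher (5.11%). The next lowest in RNA were CASC5 (-0.83) and SGOL2 (-0.82), and the highest were PLK4 (0.69), BIRC5 (0.52) and MAD2L1 (0.43). In Ribo-Seq 0 were lower (7.71%) and 1 was higher (5.52%), PLK4 (1.13), whose level was only 1.45 and 3.18 FPKM. TE lay mostly above proliferation, with 41 of 55 genes above 0 and a median of 0.13 against -0.07 over all genes. Below 0 were 14 of the 55, against 58.0% of all genes. CENPF (1.34) and CENPE (1.27), both large kinetochore proteins, were 2-fold higher in TE (2 of 55, 0.666% of all genes) and SMC2 was at 0.99, while 0 were 2-fold lower (1.36%). Between the proliferation columns, run 2 against run 1, TE already differed by 1.15 for CENPE, 0.43 for CENPF and 0.25 for SMC2. Against run 1 proliferation, 6 genes were 2-fold higher in TE (4.28% of all genes) and 10 were 2-fold lower in RNA (4.8%). Of the 9 fibroblast markers 3 were 2-fold lower in RNA and 6 in Ribo-Seq in transformed cells.

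**Figure D2:**
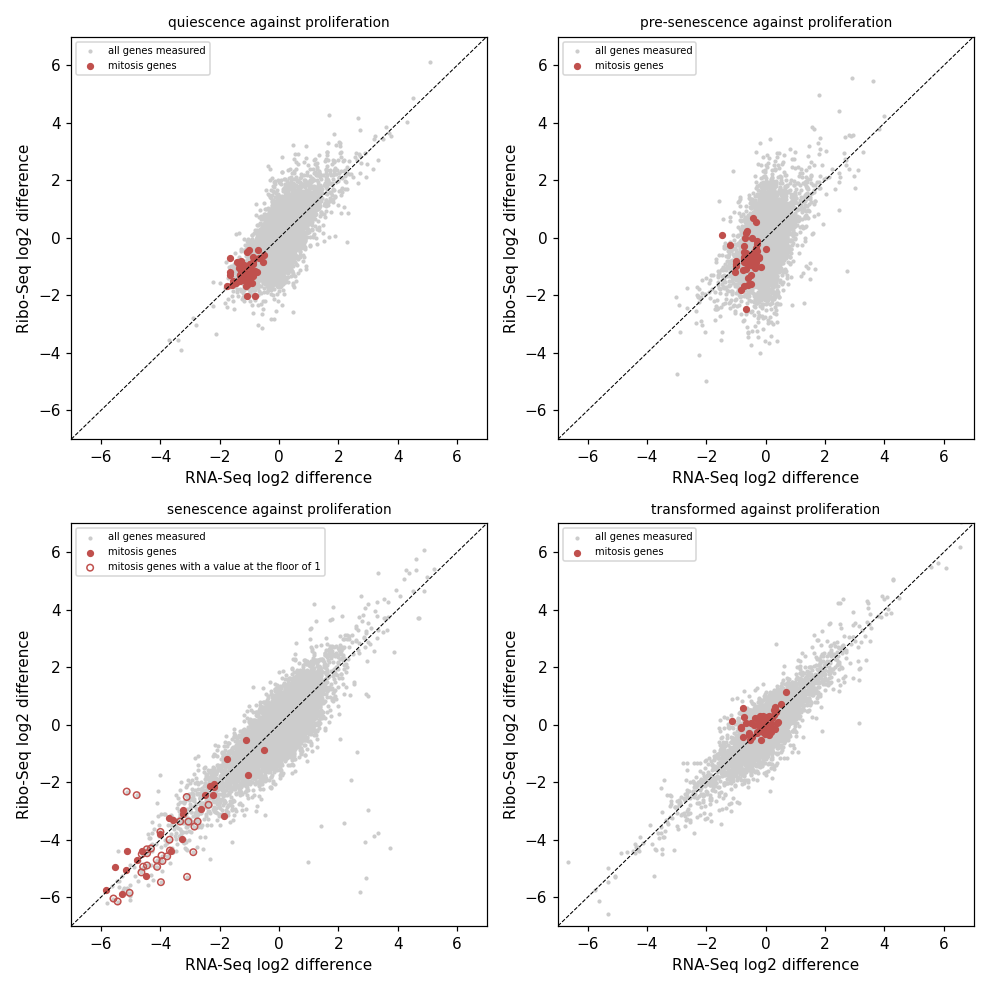
Log2 difference from proliferation of the same run in RNA-Seq (x axis) and Ribo-Seq (y axis) for all measured genes (grey) and the mitosis genes (red) in the 4 comparisons, with equality dashed and open circles for genes with a value at the floor in the changed condition. The red points are near -1 on both axes in quiescence, far down the diagonal in senescence (medians of -3.74 and -4.31) and near 0 in transformed cells.

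Among the 14 kinetochore and centromere genes, all were 2-fold lower in senescence in RNA (13.6% of all genes) and in Ribo-Seq (17.4%). In senescence 11 of the 14 in RNA and 12 in Ribo-Seq were under 2 FPKM. These counted as measured through proliferation only and so had to be lower. In quiescence 6 in RNA (2.5%) and 11 in Ribo-Seq (8.44%) were 2-fold lower. CENPA, the histone that marks the centromere, had RNA of 16.7, 9.42 and 7.63 FPKM in proliferation, pre-senescence and quiescence of run 1, and 12.9, 12.7 and 1 FPKM in proliferation, transformed and senescent cells of run 2. Its Ribo-Seq values in that order were 19.4, 5.54 and 9.30 and then 16.5, 15.5 and 1.03 FPKM, so that footprints, unlike RNA, were lowest within run 1 in pre-senescence. The same reversal was seen for NDC80, the microtubule-binding subunit of the outer kinetochore, whose RNA was at 31.4, 22.1 and 16.98 FPKM in run 1 and 24.9, 18.9 and 1 FPKM in run 2. NDC80 footprints were at 56.95, 18.8 and 22.8 and then 35.2, 34.5 and 1 FPKM. Its partner NUF2 had footprints of 42.5, 28.1 and 22.9 FPKM in run 1, with quiescence the lowest. CENPF, a large protein of the fibrous corona, fell in RNA from 19.9 FPKM in run 2 proliferation to 1 in senescence and was at 11.7 in transformed cells, beside 35.98, 21.8 and 18.4 FPKM in run 1. Its Ribo-Seq level in transformed cells, 51.98 FPKM, was instead above proliferation (34.9 FPKM) and the highest of its 6 values. CASC5, the scaffold that recruits the checkpoint kinase BUB1, had RNA of 13.1, 8.07 and 6.52 FPKM in run 1 and 10.1, 5.67 and 1 FPKM in run 2. CENPN, a reader of centromeric chromatin, kept 6.63 FPKM of RNA in senescence but 1.47 FPKM of footprints. Its RNA difference of -1.84 was the smallest of the 14, which ran down to -4.64, with CENPE, CENPH, CENPK, CENPM, NUF2, SPC24, SPC25 and the checkpoint-linked ZWILCH and ZWINT within that range.

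**Figure D3:**
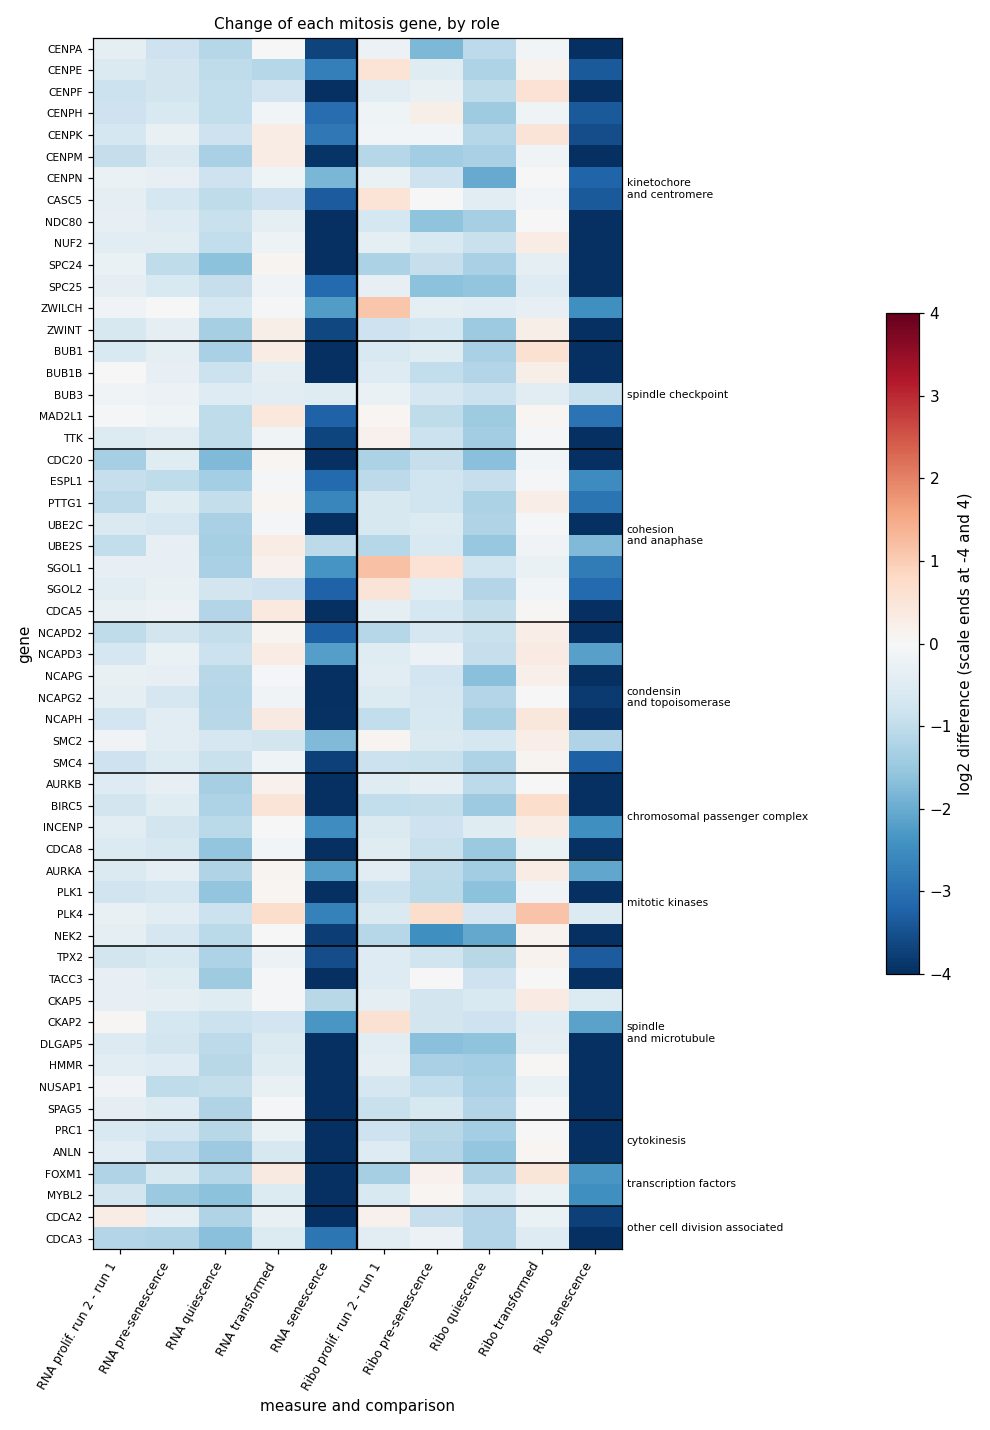
Log2 difference (colour, scale ending at -4 and 4) of each of the 56 mitosis genes (rows, grouped by role) in RNA-Seq and Ribo-Seq, for run 2 against run 1 proliferation and for the 4 conditions against proliferation of their own run. The senescence columns are dark blue in nearly every row, with BUB3 (-0.49 in RNA) and CKAP5 (-0.53 in Ribo-Seq) among the palest. PLK4 is pale in Ribo-Seq because its footprints were under 2 FPKM in both run 2 proliferation and senescence.

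Of the 5 spindle checkpoint genes, 4 were 2-fold lower in senescence (13.6% of all genes) and 3 in quiescence (2.5%) in RNA. In each assay 3 of the 5 were under 2 FPKM in senescence and so had to be lower. BUB3 was the steadiest of all 56 genes across conditions in RNA, with 87.95, 74.7 and 61.05 FPKM in run 1 and 79.9, 58.02 and 56.7 FPKM in run 2, where transformed and senescent cells nearly coincided. Its partner in the checkpoint, the kinase BUB1, ran from 38.8 through 29.6 to 15.7 FPKM in run 1 and from 25.2 to 1.02 FPKM in senescence, a 24.7-fold lower level, with 31.1 FPKM in transformed cells. Their footprints diverged in the same way, at 82.4 FPKM for BUB3 and 1.28 FPKM for BUB1 in senescence. MAD2L1, which binds and inhibits CDC20, had RNA of 32.2, 28.8 and 15.9 FPKM in run 1 and 31.4, 42.2 and 3.37 FPKM in run 2. In pre-senescence its footprints fell to 37.9 from 76.6 FPKM while its RNA differed little. BUB1B, TTK and MAD2L1 were all 2-fold lower in senescence in both assays.

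The 8 genes of cohesion and anaphase held the most abundant transcripts of the set. CDC20 had RNA of 215, 153 and 63.2 FPKM in run 1 and 86.2, 91.6 and 2.19 FPKM in run 2, with footprints of 250.3, 131, 77.9, 104, 95.95 and 1.74 FPKM in the same order. Quiescence lay below both proliferation columns, but pre-senescence lay between them. UBE2C and UBE2S, which start and extend ubiquitin chains on APC/C substrates, parted in senescence: UBE2C RNA was at 1.45 FPKM against 81.6 in proliferation, a 56.2-fold lower level, and UBE2S RNA at 62.6 against 130.1, a 2.08-fold lower level. Elsewhere UBE2C RNA was at 123, 77.1 and 50.04 FPKM in run 1 and 76.95 FPKM in transformed cells. PTTG1, or securin, the inhibitor of separase, kept 6.55 FPKM of RNA and 13.6 FPKM of footprints in senescence, against 40.3 and 103 FPKM in proliferation. It was at 83.8, 60.1 and 43.5 FPKM of RNA in run 1 and 42.5 in transformed cells, and since only uniquely mapped reads were counted, reads shared with its near-identical relatives may be missing. Separase itself, ESPL1, had 8.63 FPKM of RNA in proliferation and the floor value in senescence, at least 8.63-fold lower. The shugoshins SGOL1 and SGOL2, which guard centromeric cohesin, and CDCA5, or sororin, which stabilizes cohesin, were also lower in senescence, by log2 differences of -2.37, -3.23 and -4.44 in RNA.

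All 7 condensin genes in the table were 2-fold lower in senescence in both assays (13.6% of all genes in RNA and 17.4% in Ribo-Seq). NCAPG, NCAPG2 and NCAPH were under 2 FPKM in senescence in both assays and so had to be lower. NCAPH, the subunit that closes the condensin I ring, had RNA of 26.3, 19.5 and 12.1 FPKM in run 1 and 15.5, 19.9 and 1 FPKM in run 2, and its footprints in senescence were at the floor as well, at least 23.5-fold lower than 23.5 FPKM. The ATPase subunits differed from each other. SMC4 RNA was at 74.3, 50.8, 40.1, 42.05, 37.3 and 3.19 FPKM in the same order, 13.2-fold lower in senescence than in proliferation. SMC2 was 3.37-fold lower in RNA in senescence and kept 12.7 of 29.1 FPKM of footprints, a 2.29-fold lower level. NCAPD3, a subunit of condensin II, was 4.56-fold lower in RNA and NCAPD2, its counterpart in condensin I, 9.54-fold lower. The remaining subunits, NCAPG and NCAPG2, were lower by log2 differences of -4.45 and -4.01. The 7 condensin genes had TE differences above 0 in transformed cells, from 0.05 to 0.99, while 58.0% of all genes were below 0. Between the proliferation columns, run 2 against run 1, their TE already differed by -0.24 (NCAPH) to 0.25 (SMC2).

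All 4 genes of the chromosomal passenger complex, which corrects faulty attachments, were 2-fold lower in RNA in quiescence (2.5% of all genes) and in senescence (13.6%). AURKB, BIRC5 and CDCA8 were under 2 FPKM of RNA in senescence and so had to be lower. AURKB, the kinase of the complex, had RNA of 47.02, 37.6 and 18.7 FPKM in run 1 and 32.8, 37.1 and 1 FPKM in run 2. BIRC5, which brings the complex to the centromere, went from 81.98 to 58.96 and 35.2 FPKM in run 1, and in run 2 from 49.04 to 1.06 FPKM in senescence but to 70.4 FPKM in transformed cells. The BIRC5 footprints of 170.1 FPKM in transformed cells were the highest of all 56 genes in that column. INCENP, the scaffold, was less far down than its partners in senescence, with 4.25 FPKM of RNA and 6.72 FPKM of footprints, against 1.37 and 2.68 FPKM for CDCA8, or borealin.

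Among the mitotic kinases, AURKA and PLK1 differed in how much remained in senescence. AURKA, which matures centrosomes, had RNA of 66.6, 51.4, 29.1, 44.3, 47.7 and 9.65 FPKM in the order of run 1 proliferation, pre-senescence, quiescence, run 2 proliferation, transformed and senescent cells, and its footprints were at 61.97 FPKM in run 2 proliferation and 14.7 FPKM in senescence. PLK1, which drives mitotic entry and spindle assembly, had RNA of 105, 66.4, 35.4, 60.6, 63.7 and 1.40 FPKM and footprints of 129.9, 61.6, 42.1, 71.1, 65.2 and 1 FPKM. Thus AURKA was 4.59-fold and PLK1 43.3-fold lower in RNA. NEK2 had the largest drop of footprints at 5 days, from 52.9 to 9.63 FPKM, while its RNA was at 17.4 and 10.9 FPKM. In the other proliferation column NEK2 footprints were at 23.9 FPKM, still above the pre-senescence value.

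The 8 spindle genes and both cytokinesis genes fell in senescence in RNA without exception. Of these, DLGAP5, HMMR, NUSAP1 and SPAG5 were under 2 FPKM of RNA in senescence and so had to be lower. TPX2, the activator of AURKA, had RNA of 124, 81.8 and 52.96 FPKM in run 1 and 74.4, 63.1 and 6.31 FPKM in run 2. CKAP5 stood apart, at 54.2, 42.4 and 38.6 FPKM and then 43.4, 41.03 and 19.9 FPKM of RNA, with 39.6 FPKM of footprints in senescence against 57.3 in proliferation. PRC1, which bundles the central spindle, had RNA of 124, 72.1 and 56.8 FPKM and then 80.5, 66.8 and 2.25 FPKM, and ANLN followed the same course down to 3.01 FPKM. NUSAP1, DLGAP5 and HMMR, a spindle-associated hyaluronan-binding protein, were at the floor in senescence in both assays. The centrosomal and spindle proteins TACC3, CKAP2 and SPAG5 had senescence RNA differences of -4.47, -2.32 and -4.45. In transformed cells all 8 spindle genes had RNA differences below 0, from -0.77 to -0.05, and TE differences above 0. Over all genes 41.1% were below 0 in RNA and 58.0% in TE.

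The transcription factors FOXM1 and MYBL2 were set apart by a low TE in proliferation, the cause of which was not tested. FOXM1 RNA was at 79.8, 50.9 and 36.05 FPKM in run 1 and 35.05, 44.7 and 1 FPKM in run 2, but its footprints were at 12.7, 14.3, 5.57, 5.02, 7.03 and 1 FPKM. MYBL2 RNA was at 46.5, 16.6, 14.9, 27.8, 18.9 and 1 FPKM with footprints of 8.28, 8.83, 5.10, 5.47, 4.52 and 1 FPKM. FOXM1 had the lowest TE of the set in each of the 5 columns where it could be taken, at -2.65, -2.80, -2.69, -1.84 and -2.67 in run 1 and run 2 proliferation, quiescence, pre-senescence and transformed cells. In run 1 proliferation this was the 0.326th percentile of all genes and MYBL2 (-2.49) the 0.513th. In pre-senescence FOXM1 stood at the 1.83rd percentile and MYBL2 at the 10.4th, and the footprints of both were slightly above run 1 proliferation although their RNA was below it. The last 2 genes, CDCA2, which brings protein phosphatase 1 to chromosomes, and CDCA3, were at the floor in senescence from 15.9 and 7.40 FPKM of RNA.

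Apart from these factors and PLK4, at -1.90, the set had a TE close to that of other genes in proliferation. The median TE was 0.40 in run 1 (0.44 over all genes) and 0.50 in run 2 (0.46), and 27 of 56 and 31 of 55 genes were above the median gene. At the upper end SPC24 was at the 97.8th percentile of all genes in TE in run 1 and at the 87.3rd in run 2. In transformed cells the median TE of the set was 0.71 against 0.38 over all genes, with 38 of 56 above the median gene, and in pre-senescence it was 0.10 against 0.29, with 25 of 56 above.

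**Figure D4:**
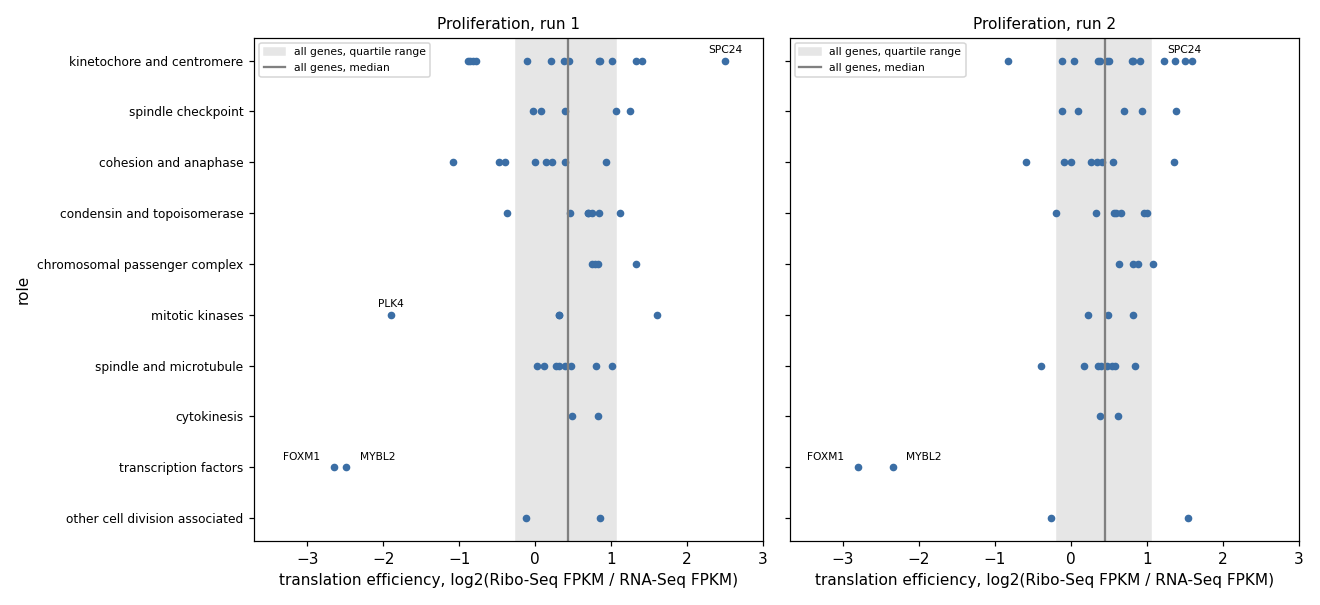
Translation efficiency (x axis, log2 of Ribo-Seq over RNA-Seq FPKM) of the mitosis genes by role (y axis) in the proliferation columns of run 1 (left) and run 2 (right), for genes with at least 2 FPKM in both assays. Each point is a gene, the grey line is the median and the band spans the quartiles of all genes, and FOXM1 and MYBL2 lie far to the left at -2.65 and -2.49 in run 1.

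Related genes outside the set separated into those that moved with it and those that did not. In senescence RNA, 11 of 11 mitotic kinesins (median -3.68), 12 of 12 G2/M cyclins and kinase partners (-2.94) and 17 of 17 replication licensing genes (-3.05) were 2-fold lower, against 13.6% of all genes. In these and the other lists, any gene under 2 FPKM in senescence counted as measured through proliferation only. Such genes had to be lower, and they were not set apart in these counts. In quiescence these lists had 6, 8 and 14 genes 2-fold lower, against 2.5% of all genes, with medians of -1.05, -1.13 and -1.10. Of 12 core subunits of the APC/C, the enzyme that CDC20, UBE2C and UBE2S serve, 0 were 2-fold lower or higher in RNA in any of the 4 comparisons. Their medians lay between -0.15 and 0.04. Over all genes the shares lower and higher were 2.5% and 4.24% in quiescence and 2.13% and 1.89% in pre-senescence. They were 13.6% and 7.42% in senescence and 5.54% and 5.11% in transformed cells. With such shares, 0 of 12 does not set the subunits apart from genes in general. Of the 9 core cohesin genes 6 were 2-fold lower in senescence RNA (median -1.08) and 0 in the other 3 comparisons, where the shares over all genes were small as well. Of 24 other measured kinetochore genes 16 were lower in senescence (median -1.69), and of 14 genes of the DREAM, MuvB and RB family 5 were lower and 2 higher, against 13.6% and 7.42% of all genes. TTTGAA was present in the promoter windows of 9 of 12 kinesins, 6 of 10 cyclins and partners and 0 of 14 licensing genes. It was also present in 4 of 13 APC/C genes (30.8%), 2 of 8 cohesin genes (25%), 7 of 21 other kinetochore genes (33.3%) and 5 of 14 genes of the DREAM, MuvB and RB family (35.7%). The share over the genes of the table with a window was 13.6%. Within the set, the median log2 difference in senescence RNA was -4.01 for the 29 genes with TTTGAA and -3.50 for the 16 without, and in quiescence it was -1.04 and -1.14. For genes at the floor in senescence, the difference only reflects the level in run 2 proliferation. Whether TTTGAA goes with a deeper fall was not tested.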

How the data were processed

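Expression levels came from 1 deposited table of 9699 genes and 12 columns (9 RNA-Seq and 8 Ribo-Seq libraries). The authors aligned reads of 50 nucleotides with Bowtie to 1 protein-coding transcript per gene (Ensembl release 65, with hg19 named in the submitters' processing notes), kept uniquely mapped reads, computed FPKM over the whole transcript for RNA-Seq and over the coding sequence for Ribo-Seq, and set FPKM under 1 to 1. The study describes a minimum of 40 reads in both assays in at least 1 condition, which could not be checked on FPKM. How replicate libraries were merged is not given in the sources used here, and the reads behind single values are not in the table.

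From these values log2 differences were computed with Python 3.11.15 and pandas 2.3.3, after the script was tested on simulated data. RNA-Seq and Ribo-Seq differences used genes with 2 FPKM in at least 1 column, and TE differences genes with 2 FPKM in all 4. With 1 column per condition no test was run. By rule, 21 genes were described in every RNA-Seq column, and the 3 lowest and 3 highest of each comparison were to be named. In several comparisons only part of these ends was named. All other genes were accounted for by role, and those named outside the rule were chosen after their values were seen. The genes, their roles and the related lists were chosen with earlier results of these data known. Of the 58 genes 47 matched a RefSeq promoter window by current or older symbol. Alternatives were a different filter, offset, threshold, reference column and centring, and exchanged Ribo-Seq columns. The other knockdown target of the transformed cells is not reported here.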

Additional observations from a re-analysis of the deposited data

How the results depend on the processing

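Of 176 counts of mitosis genes recomputed under the alternatives, 127 stayed within 1.5 times the value reported and 49 moved, and of 64 medians 48 stayed, 15 moved and 1 reversed. With 1 FPKM added before the logarithm, genes 2-fold lower in pre-senescence RNA numbered 3, those higher in pre-senescence TE 1, those lower in transformed RNA 0 and those higher in transformed Ribo-Seq 0. Without the filter, 4 genes were lower and 3 higher in senescence TE, where values at the floor then enter. With a filter of 5 FPKM, genes lower in quiescence TE numbered 0, higher in pre-senescence TE 1, higher in transformed Ribo-Seq 0 and higher in transformed TE 1. At a threshold of 1.5-fold, 3 genes were lower and 2 higher in quiescence TE, in pre-senescence 25 were lower in RNA, 38 lower and 1 higher in Ribo-Seq, and 10 lower and 7 higher in TE, in senescence TE 3 were lower and 2 higher, and in transformed cells 7 were lower and 1 higher in RNA, 3 higher in Ribo-Seq and 6 higher in TE. At a threshold in multiples of the local SD among genes of like level, 2 were lower in quiescence TE, 15 lower in pre-senescence RNA, 0 lower in transformed RNA, 0 higher in transformed Ribo-Seq and 5 higher in transformed TE. Against the proliferation column of the other run, 5 genes were lower in quiescence RNA, 16 in Ribo-Seq and 5 in TE with 1 higher, in pre-senescence 0 were lower in RNA, 2 higher in Ribo-Seq and 6 lower in TE, in senescence TE 1 was higher, and in transformed cells 10 were lower in RNA, 6 lower and 0 higher in Ribo-Seq, and 1 lower and 6 higher in TE. After centring on the median of all genes, 1 was higher in quiescence TE, and 1 lower and 5 higher in pre-senescence TE. With the Ribo-Seq columns of senescence and run 2 proliferation exchanged, senescence Ribo-Seq had 0 genes lower and 53 higher with a reversed median of 4.31, senescence TE had 17 higher, and transformed cells had 54 higher in Ribo-Seq and 17 in TE. Beyond what each alternative does by construction, the cause was not tested.

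No paired analysis was possible because the replicate libraries of run 1 were merged by the authors in all columns but pre-senescence Ribo-Seq, a single library, and each run 2 column is a single library. The counts of genes 2-fold lower in senescence RNA stayed within 1.5 times the value reported under every alternative run. Run 1 and run 2 differ in read layout and in their proliferation cells, so pre-senescence and senescence can be compared only through separate reference columns. The floor of 1 FPKM bounds the senescence fall, and no counting interval or replicate error was computed for any single value.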
